A study of Rattus norvegicus with 12 samples.

Results

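The transcripts of 10 rat enzymes that remove superoxide and peroxides were followed in 4 neuron populations that differ in their sensitivity to oxidative stress (OS). The members were taken by gene symbol as every probe set annotated to *Sod1*, *Sod2*, *Cat*, *Gpx1*, *Gpx4*, *Prdx1*, *Prdx2*, *Prdx3*, *Prdx5* and *Prdx6*, which gave 10 probe sets, 1 for each gene, of 15923 on the array. The probe set for *Prdx1* is annotated to *Prdx1l1* as well, so that its signal cannot be given to 1 of these genes and is written *Prdx1/Prdx1l1*. Neurons were lifted by laser capture from brain sections of untreated Fisher 344/BN F1 rats aged 6 months, and their RNA was amplified in 2 cycles and hybridized to 12 Affymetrix RAE230A arrays, 3 biological replicates of each region. The 4 arrays that share a replicate number are called replicate set 1, 2 or 3 here, since the methods use paired tests but no source used here gives the number of animals or ties a number to 1 of them. The p-values measure the spread between these samples. The regions were the pyramidal cell layer of hippocampal CA1 and the granule cells of the cerebellum (CbG), which the study calls vulnerable (VUL, 6 arrays), and the pyramidal cell layer of CA3 and layers IV to VI of the cerebral cortex (CTX), which it calls resistant (RES, 6 arrays). The animals received no oxidant, so that all levels are basal.

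Superoxide dismutases turn superoxide into hydrogen peroxide, *Sod1* in the cytosol with copper and zinc and *Sod2* in the mitochondrial matrix with manganese. Catalase, the product of *Cat*, breaks hydrogen peroxide down in peroxisomes. The selenoenzymes GPX1 and GPX4 reduce peroxides with glutathione, GPX4 acting on lipid peroxides within membranes, while peroxiredoxins reduce them through a cysteine that most family members recharge from thioredoxin.

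The levels are MAS5 signals, the linear intensities computed by the array maker's software, and they were compared between arrays for 1 probe set at a time. For the tests each signal was set on the log2 scale over the median of its array, with differences given on that scale. A probe set was called at a Benjamini-Hochberg adjusted p under 0.05 in limma, with the replicate number as a block, and a difference of at least 1.5-fold between 2 groups. All 10 members were among the 7535 probe sets tested. Less RNA per cell and fewer cells of a type cannot be told apart in such captures.

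The labels of 2 arrays went against their markers. *Gabra6*, whose product is the granule cell subunit of the GABA-A receptor, had a signal of 2568 under the label CA3 replicate 3 and of 15.4 under the label CbG replicate 3. It read 3379 and 1283 in the other CbG arrays and 5.6 and 38.6 in the other CA3 arrays. *Grik4*, a kainate receptor subunit gene of CA3 neurons, gave 68.0 under the label CA3 replicate 3 and 621 under the label CbG replicate 3, against 679.9 and 969 in the other CA3 arrays. The main comparisons are therefore given with the arrays as labelled, with these 2 labels exchanged, and over the 10 arrays without them. The exchange rests on the markers and not on the labels, and p-values after it do not cover that choice. The array labelled CbG replicate 3 also held CA1 signal. Its *Wfs1*, a CA1 pyramidal marker, read 3769, against 1044.7 and 481.4 in the undisputed CA3 arrays and 15688.4 to 20537.9 in CA1. The summed signal of 6 CA1 markers was 8372.5 there, against 1606.4 and 2837.1 in these CA3 arrays. After the exchange this array counts as CA3 in every CA3 mean and contrast.

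As labelled, no member was called in VUL neurons against RES neurons, where 0% of all probe sets tested were called, and none had an unadjusted p under 0.05. After the exchange again 0 of 10 members were called between VUL and RES neurons, against 18.5% of all probe sets tested, although 2 members had an unadjusted p under 0.05 there. Over 10 arrays 0 of 10 were called against 17.8%, with 2 members at an unadjusted p under 0.05. The methods' paired t-test, on VUL and RES arrays of the same replicate number, called 0 members in each arrangement at its threshold on the unadjusted p and the fold change. As labelled it called 96 of 7535 probe sets higher and 100 lower in VUL neurons. With the labels exchanged it called 573 higher and 342 lower, and over 10 arrays 305 and 295 of 7463. No share of all probe sets is given beside the counts at an unadjusted p under 0.05, here and below. With each array centred on its median, CA3 had the highest mean of the 4 regions for 7 of 10 members as labelled and for 8 of 10 with the labels exchanged, against 31.8% and 32.1% of all probe sets tested. The counts depended on this centring: on the signals as deposited they were 3 of 10 as labelled and 5 of 10 with the labels exchanged, *Cat*, *Prdx2*, *Prdx3*, *Prdx5* and *Prdx6*, against 18.1% and 24.6%.

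**Figure D1:**
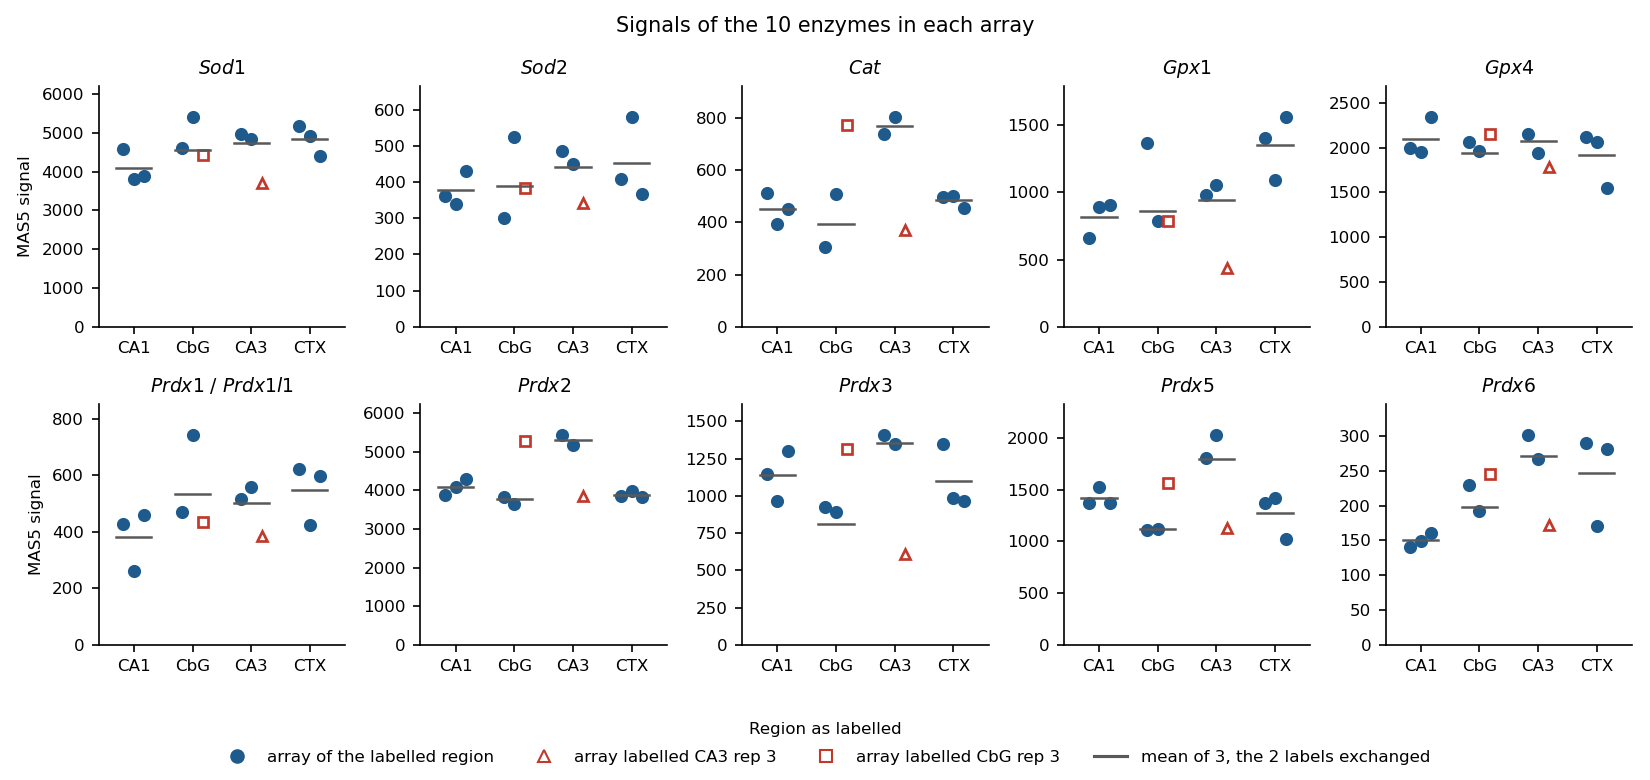
MAS5 signal (y axis, linear, from 0) of each enzyme in the 12 arrays, placed at the region of their label (x axis). Filled points are arrays with undisputed labels, the open triangle is the array labelled CA3 replicate 3, the open square the array labelled CbG replicate 3, and the grey bars are region means (n = 3) with these 2 labels exchanged. For *Cat*, *Prdx2*, *Prdx3* and *Prdx5* the square lies beside the filled CA3 points and the triangle beside or below the filled CbG points.

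*Sod1* had similar signals in the 4 regions. Its signal was 4578, 3807 and 3892 in CA1, 4614, 5400.0 and 4439.7 in the arrays labelled CbG, 4961, 4830.4 and 3702 in those labelled CA3, and 5180.4, 4923 and 4402 in CTX, with the third CbG and the third CA3 value from the 2 arrays in question. The regions overlapped in both arrangements. The VUL minus RES difference was 0.01 ± 0.15 (SE) as labelled and -0.07 ± 0.13 with the labels exchanged, with a 95% interval from -0.34 to 0.21. An effect of 1.5-fold in either direction lies outside that interval.

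*Sod2* gave 362, 341 and 430.3 in CA1, 301, 525 and 385 as labelled in CbG, 488, 452 and 342 as labelled in CA3, and 409, 579.5 and 368 in CTX. Both the highest CTX and the highest CbG array had replicate number 2, and no region stood apart. The VUL minus RES difference was -0.14 ± 0.17 with the labels exchanged (adjusted p = 0.578), with an interval from -0.51 to 0.23. It was -0.09 ± 0.21 as labelled.

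*Cat* had the highest F value of the 10 enzymes over the 4 regions with the labels exchanged. Its signal was 512, 395 and 452 in CA1, 306, 508 and 773 in the arrays labelled CbG, 738, 802.5 and 369 in those labelled CA3, and 498, 502 and 456 in CTX. The 3 highest arrays were thus both undisputed CA3 arrays and the array labelled CbG replicate 3. After the exchange the mean was 453 ± 58.3 in CA1, 394 ± 103 in CbG, 771 ± 32.2 in CA3 and 485.5 ± 25.6 in CTX (SD, n = 3 each), and every CA3 array lay above every other array. In this arrangement CA3 above CA1 was the only call among neighbouring regions in the orders of all 10 members, and over 10 arrays it was not called. *Cat* passed the F test over the 4 regions (adjusted p = 0.00225), as did 5 of 10 members and 67.9% of all probe sets tested, against 5 of 10 and 60.8% over 10 arrays and 0 of 10 and 3.2% as labelled. It was lower in CbG than in CA3 by 1.14 ± 0.22 on the log2 scale (adjusted p = 0.000788), lower in CA1 than in CA3 by 0.78 ± 0.22 (adjusted p = 0.0315), and 1.00 ± 0.22 higher in CA3 than in CTX (adjusted p = 0.00383). The CbG and CTX calls held without each of the 12 arrays and each of the 3 replicate sets in turn. The CA1 call was lost without CA1 replicate 2 or 3, CA3 replicate 1 or 2, the array labelled CbG replicate 3, or any of the 3 replicate sets, at adjusted p up to 0.168. As labelled, the same 3 differences were -0.45 ± 0.43 for CbG minus CA3, -0.44 ± 0.43 for CA1 minus CA3 and 0.65 ± 0.43 for CA3 minus CTX, and none was called.

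The glutathione peroxidases had no call in any contrast. *Gpx1* gave 659, 888 and 905.5 in CA1, 1364, 789 and 786 in the arrays labelled CbG, 984, 1058 and 439 in those labelled CA3, and 1405.5, 1092 and 1558 in CTX. CTX had its highest mean in both arrangements, and the lowest signal of the 12 was that of the array labelled CA3 replicate 3. The VUL minus RES difference was -0.41 ± 0.21 with the labels exchanged (adjusted p = 0.157), with an interval from -0.86 to 0.04 that reaches past 1.5-fold. Without CbG replicate 1, its brightest CbG array, the difference was -0.59 and passed both thresholds (adjusted p = 0.031). *Gpx4* ran between 1551 in CTX replicate 3 and 2336 in CA1 replicate 3. Its VUL minus RES difference of 0.11 ± 0.14 with the labels exchanged was the only one above 0 among the 10 enzymes.

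The peroxiredoxins differed among themselves. *Prdx1/Prdx1l1* gave 427, 261 and 460.1 in CA1, 471.5, 741 and 434 in the arrays labelled CbG, 514.5, 557.5 and 386 in those labelled CA3, and 623, 425 and 597 in CTX. Its replicates varied as much as its regions, and its VUL minus RES interval with the labels exchanged ran from -0.61 to 0.29. No F test was passed (adjusted p = 0.542).

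*Prdx2*, the peroxiredoxin abundant in neuronal cytosol, was steady in CA1 with 3884, 4079 and 4291, and in CTX with 3856, 3973.5 and 3829.5. The arrays labelled CbG gave 3834, 3647 and 5282 and those labelled CA3 gave 5418, 5169 and 3851.5. With the labels exchanged the mean was 4084 ± 204 in CA1, 3777 ± 113 in CbG, 5289.8 ± 124 in CA3 and 3886 ± 76.7 in CTX (SD, n = 3 each), and no other array reached the lowest CA3 array. *Prdx2* was lower in CbG than in CA3 by 0.63 ± 0.17 (adjusted p = 0.00714) and 0.77 ± 0.17 higher in CA3 than in CTX (adjusted p = 0.00351). The CA1 minus CA3 difference of -0.38 ± 0.17 was not called (adjusted p = 0.161). The CbG call was lost without CA3 replicate 1, where the difference of -0.58 no longer reached 1.5-fold, and both calls were lost without replicate set 1, with adjusted p values of 0.110 and 0.0599.

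*Prdx3* and *Prdx5* work in mitochondria, PRDX5 also in peroxisomes and the cytosol. *Prdx3* gave 1149, 965 and 1304 in CA1, 928, 894 and 1312 in the arrays labelled CbG, 1405, 1347 and 609 in those labelled CA3, and 1351, 987 and 967 in CTX. On these signals CTX replicate 1 lay within the CA3 range, while the CbG signals were the 3 lowest with the labels exchanged. On the centred log2 scale CTX replicate 3 (2.283) lay below CbG replicate 1 (2.310) and CbG replicate 2 (2.432). *Prdx3* was lower in CbG than in CA3 by 0.91 ± 0.21 (adjusted p = 0.00274), a call that held without each array and each replicate set. It was also 0.64 ± 0.21 higher in CA3 than in CTX (adjusted p = 0.0267) and 0.64 ± 0.21 higher in CA1 than in CbG (adjusted p = 0.0232), as the only 1 of 10 members called there, against 25.1% of all probe sets tested. The CTX call was lost without CA3 replicate 1 or 2, the array labelled CbG replicate 3, CTX replicate 2 or 3, or any of the 3 replicate sets (adjusted p up to 0.115). The CA1 call was lost without CA1 replicate 3, CbG replicate 1, the array labelled CA3 replicate 3, replicate set 1 or replicate set 3 (adjusted p up to 0.254).

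*Prdx5* gave 1368, 1522.5 and 1371 in CA1, 1110.2, 1116 and 1562 in the arrays labelled CbG, 1810.4, 2024 and 1129.5 in those labelled CA3, and 1375, 1423 and 1022 in CTX. With the labels exchanged the CbG arrays spanned only 1110.2 to 1129.5, and every CA3 array lay above every other array. It was lower in CbG than in CA3 by 0.82 ± 0.19 (adjusted p = 0.00296) and 0.83 ± 0.19 higher in CA3 than in CTX (adjusted p = 0.00464). The CTX call held without each array and replicate set, and the CbG call without each array but not without replicate set 1 (adjusted p = 0.0557). The CA1 minus CbG difference was 0.48 ± 0.19 (adjusted p = 0.0568).

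*Prdx6*, which draws on glutathione and is known from astrocytes more than from neurons, had low signals. They were 141, 149 and 160.5 in CA1, 229.6, 192 and 245 in the arrays labelled CbG, 301, 267 and 172 in those labelled CA3, and 289.5, 170.3 and 281 in CTX. The 3 CA1 arrays had the 3 lowest signals in either arrangement, and CTX replicate 2 was far below the other 2 CTX arrays. On the centred log2 scale CTX replicate 2 (-0.126) lay below CA1 replicate 2 (-0.099) and CA1 replicate 3 (0.131). With the labels exchanged *Prdx6* was lower in CA1 than in CA3 by 0.86 ± 0.21 (adjusted p = 0.0139) and lower in CbG than in CA3 by 0.60 ± 0.21 (adjusted p = 0.0257). The CA1 call was lost without CA1 replicate 1, CA3 replicate 1 or 2, or replicate set 1 (adjusted p up to 0.206). The CbG call was lost without CbG replicate 1, CA3 replicate 1 or 2, the array labelled CA3 replicate 3, replicate set 1 or replicate set 2 (adjusted p up to 0.140). Without replicate set 3 the probe set no longer passed the filter on low signals. Of the 10, *Prdx6* had the VUL minus RES difference farthest from 0 in this arrangement, -0.48 ± 0.15 (adjusted p = 0.0231, interval from -0.79 to -0.17), followed by *Cat* with -0.46 ± 0.16 (adjusted p = 0.0373), and both stayed under 1.5-fold. The adjusted p was under 0.05 with a lower value in VUL neurons for these 2 of 10 members, against 12.4% of all probe sets tested. Without CTX replicate 2, the *Prdx6* difference became -0.59 (adjusted p = 0.00878) and passed both thresholds.

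**Figure D2:**
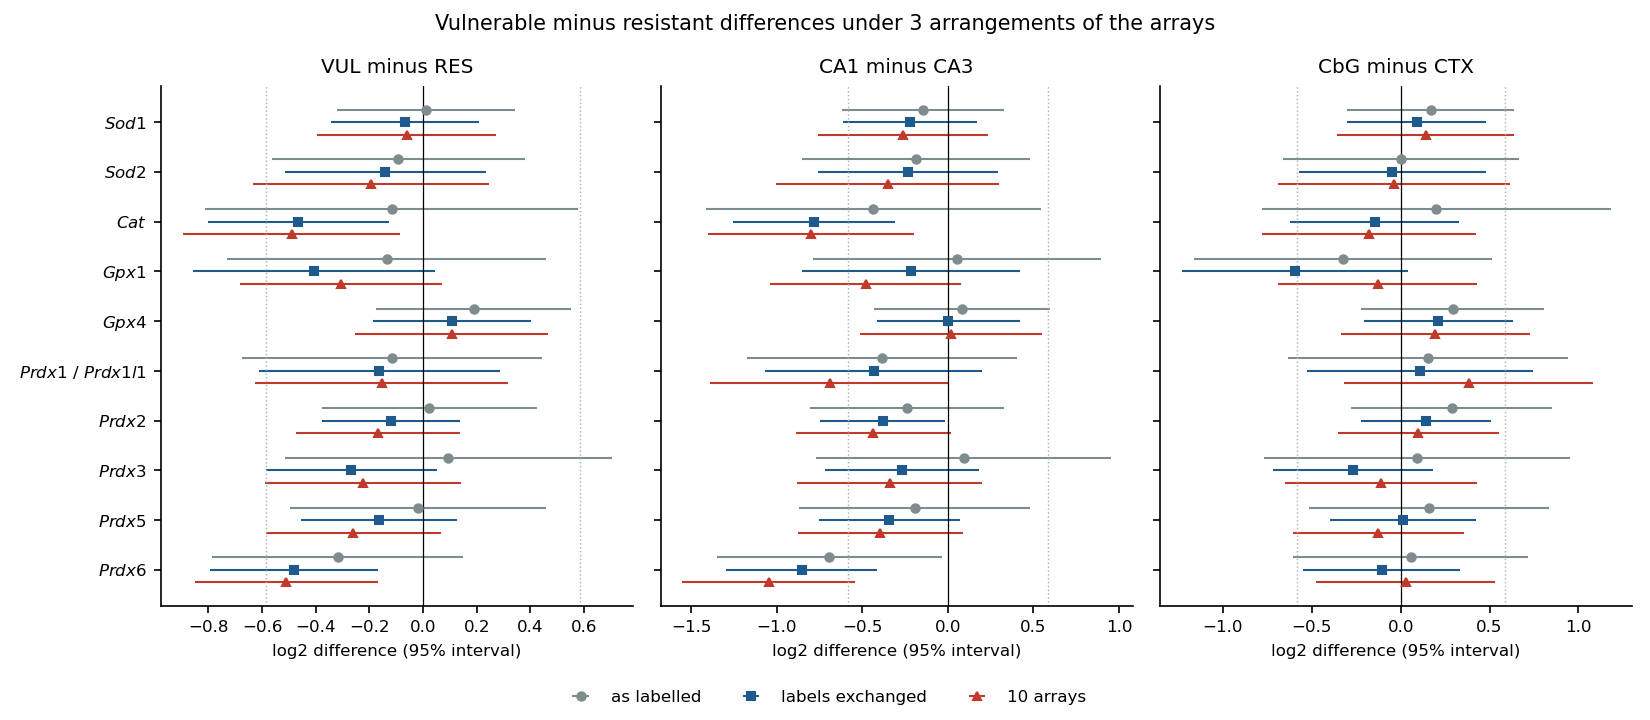
Differences of log2 signal (x axis) for VUL minus RES, CA1 minus CA3 and CbG minus CTX, for the 10 enzymes (rows), with arrays as labelled (grey circles), with 2 labels exchanged (blue squares) and over 10 arrays (red triangles). Bars are 95% intervals and dotted lines mark 1.5-fold. For VUL minus RES, 9 of 10 squares lie below 0 and none of the 10 passes -0.58, the log2 of 1.5-fold.

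Ranking the 4 regions set the enzymes against the OS sensitivity of the neurons. If an enzyme's transcript followed resistance, CA3 and CTX would hold its upper 2 ranks. This order was found for 0 of 10 members as labelled and for 2 of 10 with the labels exchanged, *Gpx1* and *Prdx6*, against 6.87% and 6.62% of all probe sets tested. The count moved with the scaling: with the labels exchanged it was 5 of 10 without centring, *Sod1*, *Sod2*, *Cat*, *Gpx1* and *Prdx6*, against 13% of all probe sets tested. After quantile normalization it was 7 of 10, for which no share of all probe sets was taken, so that this count has no background beside it. No member had CA1 and CbG as its upper 2 in either arrangement on the centred values. With the labels exchanged the highest mean was in CA3 for 8 members, in CA1 for *Gpx4* and in CTX for *Gpx1*, and the lowest was in CbG for 4 members, in CTX for 4 and in CA1 for 2. Without centring the lowest mean was in CbG for 5 members, in CA1 for 4 and in CTX for *Gpx4* alone, and after quantile normalization in CbG for 7 and in CA1 for 3. No share of all probe sets was taken for the lowest means. Of 30 pairs of neighbours in the centred orders 1 was called with the labels exchanged, CA3 above CA1 for *Cat*, and 0 as labelled. Over 10 arrays 1 was called too, but another, CA3 above CTX for *Prdx6* (0.69, adjusted p = 0.0385). There CA3 above CA1 for *Cat* was not called (adjusted p = 0.0890). Most neighbouring ranks thus did not pass the test.

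The sign of VUL minus RES was negative for 6 of 10 members as labelled, against 38.1% of all probe sets tested, and for 9 of 10 with the labels exchanged, against 41%. The median over the members was -0.16 with the labels exchanged, beside 0.08 over all probe sets tested, and -0.05 beside 0.08 as labelled. VUL and RES arrays overlapped for every member in each arrangement, where 3.64% of all probe sets tested were free of overlap with the labels exchanged. The difference between the CA1 with CA3 pair and the CbG with CTX pair was tested as well and called for 0 of 10 members with the labels exchanged, against 24% of all probe sets tested, with 2 members at an unadjusted p under 0.05.

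Within the hippocampus, 2 of 10 members, *Cat* and *Prdx6*, were called lower in CA1 than in CA3 after the exchange, against 6% of all probe sets tested. As labelled it was 0 of 10 against 0.677%, with 1 member at an unadjusted p under 0.05, and over 10 arrays 1 of 10, *Prdx6*, against 5.02%. Between CbG and CTX neurons 0 of 10 members were called in each arrangement, against 0.624% of all probe sets as labelled, 34% with the labels exchanged and 26.3% over 10 arrays, and 0 members had an unadjusted p under 0.05 there. Between CA1 and CTX 0 of 10 were called with the labels exchanged, against 34.1%, with 3 at an unadjusted p under 0.05.

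With the labels exchanged *Cat*, *Prdx2*, *Prdx3*, *Prdx5* and *Prdx6* had their highest mean in CA3. Of the members, 5 of 10 were lower in CbG than in CA3, against 27.5% of all probe sets tested, and 4 of 10 were higher in CA3 than in CTX, against 27.9%. As labelled, 0 of 10 were called in both, against 0% lower in CbG than in CA3 and 1.22% higher in CA3 than in CTX. At an unadjusted p under 0.05 these were 0 and 2 members. On the centred log2 scale every CA3 array lay above all other arrays for 4 members, *Cat*, *Prdx2*, *Prdx5* and *Prdx6*, against 7.96% of all probe sets tested, and as labelled for 0 members against 1.23%. On the signals themselves this held for 3 members, *Cat*, *Prdx2* and *Prdx5*, against 6.79%, while *Prdx6* overlapped with CTX.

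Replicate sets 1 and 2 gave values without the arrays in question. In these sets alone, whose 8 arrays include neither of the arrays in question, 9 members were tested and 4 of them, *Cat*, *Prdx2*, *Prdx3* and *Prdx5*, were lower in CbG than in CA3, against 28.5% of the 7353 probe sets tested. *Cat* differed there by -1.19 ± 0.30 (adjusted p = 0.0114) and *Prdx5* by -1.01 ± 0.21 (adjusted p = 0.00422). *Cat*, *Prdx2* and *Prdx5* were also higher in CA3 than in CTX, 3 of 9 against 19.6%. Both CA3 arrays of these sets lay above the other 6 on the centred log2 scale for 5 of the 9 members tested, *Cat*, *Gpx4*, *Prdx2*, *Prdx3* and *Prdx5*, against 19% of all probe sets. On the signals themselves this held for 3 members, *Cat*, *Prdx2* and *Prdx5*, for which no share of all probe sets was taken. Over the 10 arrays, 5 of 10 were called in each comparison, against 29.2% and 27.1%.

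**Figure D3:**
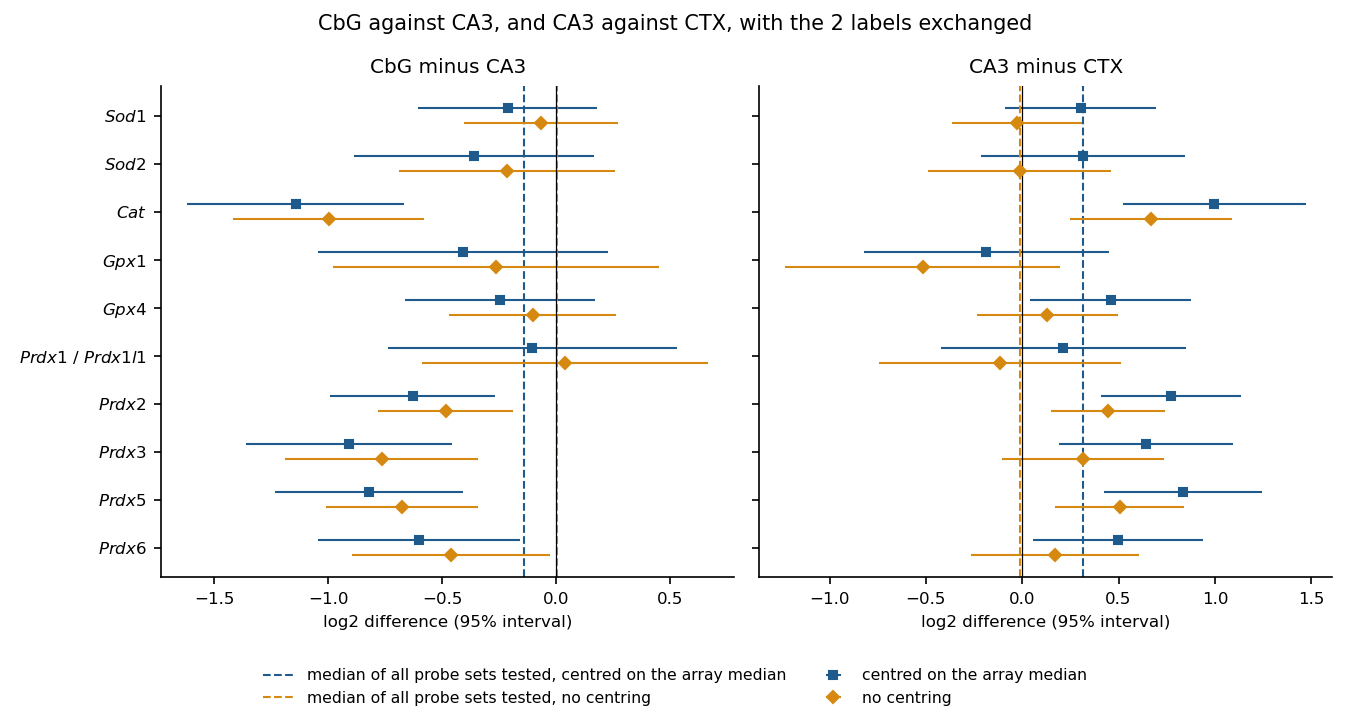
Differences of log2 signal (x axis) for CbG minus CA3 and CA3 minus CTX with the 2 labels exchanged, for the 10 enzymes (rows), centred on the array median (blue squares) and not centred (orange diamonds), with 95% intervals. Dashed lines are the medians of all probe sets tested. In CA3 minus CTX the blue median lies at 0.32 and the orange one at -0.01.

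The CA3 minus CTX calls depended on the scaling of the arrays. The median of all probe sets tested was 0.32 in CA3 minus CTX and -0.14 in CbG minus CA3 when each array was centred on its median, and -0.01 and 0.00 on the signals as deposited. Relative to the median of all probe sets, CA3 minus CTX was 0.68 for *Cat*, 0.52 for *Prdx5*, 0.46 for *Prdx2* and 0.33 for *Prdx3*. Without centring, *Cat* alone of the 10 was called higher in CA3 than in CTX (0.67, adjusted p = 0.0226), and the signs of *Sod1* (-0.03), *Sod2* (-0.01) and *Prdx1/Prdx1l1* (-0.11) turned negative, as those of *Sod1* (-0.13) and *Prdx1/Prdx1l1* (-0.00048) did after quantile normalization. CbG minus CA3 of *Prdx1/Prdx1l1* turned to 0.04 without centring. CbG minus CA3 depended less on it: *Cat* (-0.999), *Prdx3* (-0.77) and *Prdx5* (-0.68) were still called without centring, while *Prdx2* (-0.49) fell under 1.5-fold and *Prdx6* (-0.46) had an adjusted p of 0.0726. After quantile normalization *Cat*, *Prdx3*, *Prdx5* and *Prdx6* were called in CbG minus CA3, and *Cat* alone in CA3 minus CTX.

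Cells other than the captured neurons differed between the regions too. The summed signal of 8 measured oligodendrocyte markers was 4391 to 6826 in CA1, 14286 to 20847 in CbG, 10078 to 13537 in CA3 and 29176 to 44503 in CTX with the labels exchanged. That of 10 astrocyte markers was 13525 to 18361 in CA1, 22400 to 46584 in CbG, 11477 to 18863 in CA3 and 25277 to 40648 in CTX, and that of 7 neuron markers 38008 to 42937, 51519 to 54636, 49370 to 60997 and 38207 to 50965 in the same order. The 6 endothelial markers measured summed to 536 to 964 in CA1, 1737 to 2893 in CbG, 913 to 1271.5 in CA3 and 2487.5 to 4301 in CTX. *Pcp2*, a Purkinje cell gene, had signals of 1883 in CbG replicate 1, 3602 in CbG replicate 2 and 294.9 where the label is CA3 replicate 3, against 50.6 to 85.3 in the other 9 arrays. With the labels exchanged, the 5 Purkinje markers measured summed to 2606.5 to 37255.5 in CbG and 8059.5 to 8629.7 in CA1. Their sums were 3808.9 to 4194.5 in CA3 and 4216.6 to 5564.2 in CTX, and 2606.5 came from the array labelled CA3 replicate 3. The 2 erythrocyte markers measured summed to 28.2 to 238 in CA1, 998 to 2374 in CbG, 184 to 790.0 in CA3 and 683 to 1888 in CTX. CA3 thus lay below CbG and CTX in the oligodendrocyte and astrocyte sums. The 9 microglia markers summed to 399.9 to 794 in CA1, 605 to 1056.5 in CbG, 484 to 766 in CA3 and 1144.5 to 1868 in CTX. For *Gapdh*, a control of RNA quality, the 3' probe set exceeded the 5' one on the log2 scale by 1.55 to 2.21 in CA1, 1.83 to 2.36 in CbG, 1.31 to 2.08 in CA3 and 2.06 to 2.76 in CTX. For *Actb* the excess was 4.62 to 5.35, 3.85 to 6.52, 4.01 to 4.66 and 4.13 to 5.13 in the same order. The part of the cell mixture and of RNA quality in the enzyme levels was not tested.

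Over the 12 arrays *Cat*, *Prdx2*, *Prdx3* and *Prdx5* correlated with each other. These genes are set together because they were called high in CA3 on the same arrays, so that their r is no separate evidence. Pearson's r of the centred log2 signals was 0.92 between *Prdx2* and *Prdx5*, 0.86 between *Cat* and *Prdx2*, 0.84 between *Cat* and *Prdx5* and 0.80 between *Prdx3* and *Prdx5*. The lowest r among these genes was 0.75, between *Prdx2* and *Prdx3*. *Prdx6* had lower values, from 0.35 with *Prdx5* to 0.56 with *Cat* within this group, while *Gpx4* reached 0.78 with *Prdx5* and 0.76 with *Prdx2*. *Sod1* reached 0.76 with *Cat* and 0.75 with *Sod2*, so that r of this size was not particular to the group. *Gpx1* had r between -0.18 with *Gpx4* and 0.46 with *Prdx6*. All pairs share the same arrays and their centring. Among 5771 other genes tested, those most like *Prdx2* were *Usp20* (r = 0.98), *Ppp1r11* (0.98) and *Ptpra* (0.97), those most like *Prdx3* were *Mgst3* (0.97), *Sgip1* (0.95) and *Gemin8* (0.94), and those most like *Prdx5* were *Eif5a* (0.97), *Tomm70* (0.96) and *Ndfip1* (0.96). For *Cat* they were *Nifk* (0.96), *Ywhag* (0.96) and *Lurap1l* (0.95), and for *Prdx6* the glutathione transferase gene *Gsta4* (0.91), *LOC102549828* (0.87) and the succinate dehydrogenase subunit gene *Sdha* (0.87).

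The promoters of 4 members that were higher in CA3 than in CbG and CTX are shown because these 4 were called in both comparisons. Each is printed from 250 bases before a RefSeq start of transcription to 10 after it, on the strand of the gene, in the rat assembly GRCr8. The windows are chr3:110329517-110329776 for *Cat*, chr19:40090973-40091232 for *Prdx2*, chr1:270000102-270000361 for *Prdx3* and chr1:213532018-213532277 for *Prdx5*, all on the minus strand. For *Prdx2* and *Prdx5* the start used lies inside the annotated gene, whose upstream edge is at 40091083 and 213532787. Positions are counted from the start used. Capitals mark 2 motifs looked for on both strands, the GC box GGGCGG, which binds SP1 factors, and the core of the antioxidant response element TGACNNNGC, to which NRF2 binds.
Cat: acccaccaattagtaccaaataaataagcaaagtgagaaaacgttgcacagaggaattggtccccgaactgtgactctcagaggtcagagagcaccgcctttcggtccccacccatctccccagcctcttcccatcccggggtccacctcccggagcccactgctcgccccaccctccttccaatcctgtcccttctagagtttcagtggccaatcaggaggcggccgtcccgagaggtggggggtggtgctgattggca
Prdx2: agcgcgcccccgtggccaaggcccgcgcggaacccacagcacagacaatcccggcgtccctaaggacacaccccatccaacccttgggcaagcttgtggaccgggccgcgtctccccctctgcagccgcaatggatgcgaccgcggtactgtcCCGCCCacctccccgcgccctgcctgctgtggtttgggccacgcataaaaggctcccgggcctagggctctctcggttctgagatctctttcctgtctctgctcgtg
Prdx3: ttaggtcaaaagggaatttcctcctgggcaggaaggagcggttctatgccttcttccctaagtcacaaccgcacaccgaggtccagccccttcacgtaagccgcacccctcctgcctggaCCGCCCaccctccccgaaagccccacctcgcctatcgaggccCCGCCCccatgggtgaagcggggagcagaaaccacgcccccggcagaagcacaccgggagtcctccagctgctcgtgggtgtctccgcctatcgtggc
Prdx5: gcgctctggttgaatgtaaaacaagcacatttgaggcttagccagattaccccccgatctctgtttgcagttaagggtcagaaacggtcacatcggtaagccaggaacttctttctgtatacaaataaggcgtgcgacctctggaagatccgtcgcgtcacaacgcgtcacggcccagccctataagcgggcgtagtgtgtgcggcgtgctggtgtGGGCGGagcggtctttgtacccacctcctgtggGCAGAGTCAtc
A GC box was found in 8 of the 9 members with a promoter in the table, against 34.9% of 27457 genes with 1 promoter of 300 bases each (250 before and 50 after the start), and *Cat* alone had none. The response element core was found in 3 of the 9, *Sod2* at -35, *Prdx1* at -135 and *Prdx5* at -1, against 12.2% of all genes, and of these *Prdx5* alone was called in a comparison with CA3. The forkhead site TGTTTAC and the NRF1 site were found in 0 of 9, against 3.76% and 0.932%. These matches describe letters in a window and are not measured sites. *Nfe2l2*, which encodes NRF2 and was looked at for this motif after its values had been seen, read 84.8, 122.4 and 62.7 in CA1, 679, 679 and 89.1 in the arrays labelled CbG, 125.5, 19.4 and 519.5 in those labelled CA3, and 377, 229 and 294 in CTX. With the labels exchanged its signals were thus highest in the cerebellar arrays, while those in CA1 and CA3 were low and overlapped. A relation between *Nfe2l2* and the enzymes was not tested.

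Among partners of the enzymes, the genes of NADPH supply named here were picked for large VUL minus RES differences. *Me1*, cytosolic malic enzyme and a source of NADPH for the reduction of glutathione and thioredoxin, gave 471, 557 and 596 in CA1, 322, 384 and 1490.0 in the arrays labelled CbG, 1638, 1779.5 and 208 in those labelled CA3, and 673, 691 and 573 in CTX. With the labels exchanged all CA3 arrays lay far above the rest. *Me1* was lower in CbG than in CA3 by 2.61 (adjusted p = 3.5e-07), 1.67 higher in CA3 than in CTX (adjusted p = 7.91e-05) and lower in VUL than in RES neurons by 1.27 (adjusted p = 3.56e-05). *Idh1*, which makes NADPH in the cytosol and peroxisomes, spanned 1003 to 1236 in CA1 and 825 to 1127 in CbG with the labels exchanged. It spanned 1520.2 to 1844.5 in CA3 and 1879 to 2009.6 in CTX. All its VUL arrays lay below all its RES arrays in this arrangement, beside 3.64% of all probe sets tested free of overlap on centred values. As labelled they overlapped, with 825 under the label CA3 replicate 3 and 1844.5 under the label CbG replicate 3. With the labels exchanged the VUL minus RES difference of *Idh1* was -0.68 (adjusted p = 0.00145). *Taldo1* of the pentose phosphate pathway was higher in VUL neurons by 0.67 (adjusted p = 0.00138). Of 8 NADPH genes tested, 1 was higher and 2 lower in VUL than RES neurons, beside 10.2% and 8.29% of all probe sets. Their median difference was -0.0044 beside 0.08 over all probe sets.

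Among genes that renew thioredoxin, glutaredoxin and glutathione, 10 of 14 listed were tested, and 1 was higher and 4 were lower in CbG than in CA3, beside 18% and 27.5% of all probe sets tested. *Srxn1*, sulfiredoxin, which restores overoxidized peroxiredoxins, ranged over 330.5 to 369.8 in CA1, 353 to 573 in CbG, 677 to 814 in CA3 and 362 to 561 in CTX with the labels exchanged. It was lower in CA1 than in CA3 by 1.07 (adjusted p = 0.00852), lower in CbG than in CA3 by 0.85 (adjusted p = 0.00947) and 0.94 higher in CA3 than in CTX (adjusted p = 0.00756). *Sesn1*, a stress-induced sestrin, ran the other way, with 1914 to 2198 in CA1 and 1015 to 1389.8 in CbG, against 356 to 704 in CA3 and 602 to 845 in CTX. It was higher in VUL than in RES neurons by 1.56 (adjusted p = 2.18e-06). *Glrx*, cytosolic glutaredoxin, was highest in CA1 at 4407 to 4937, and *Glrx2*, its mitochondrial counterpart, was lowest in CbG at 1431 to 2133.

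**Figure D4:**
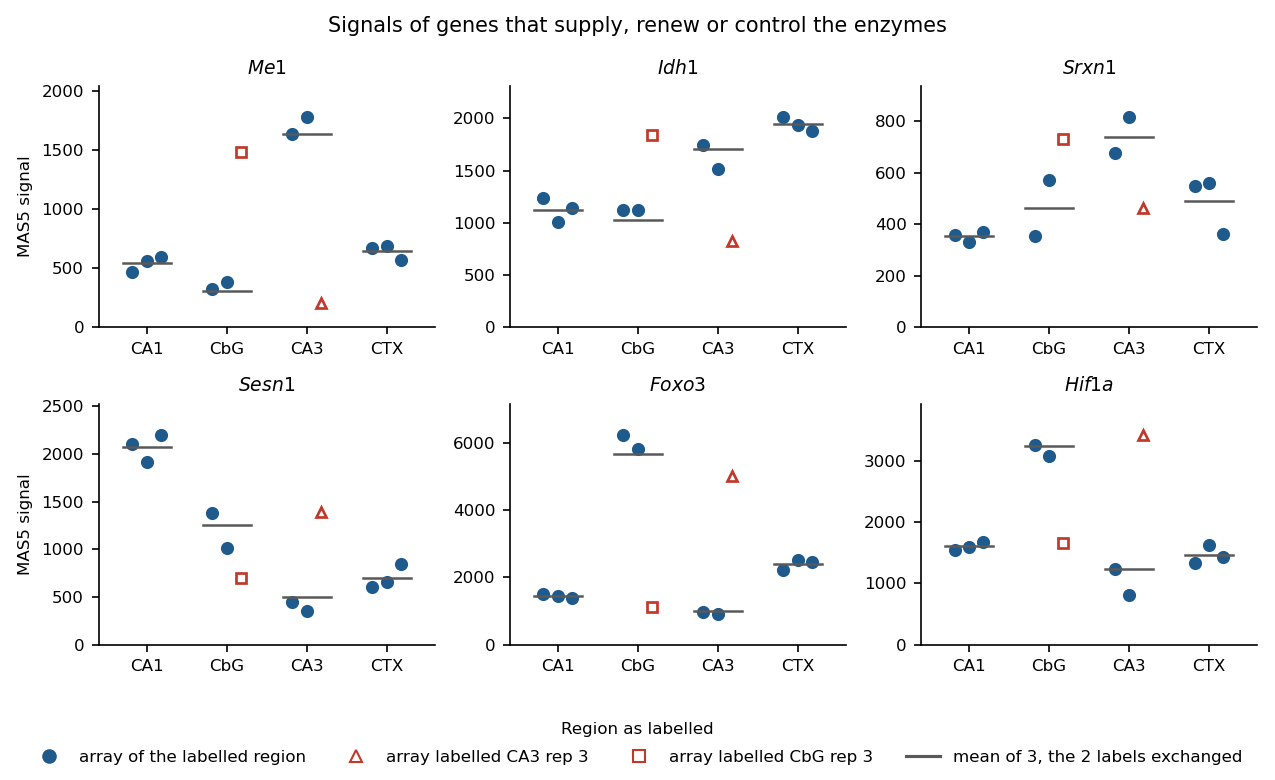
MAS5 signal (y axis, linear, from 0) of *Me1*, *Idh1*, *Srxn1*, *Sesn1*, *Foxo3* and *Hif1a* in the 12 arrays by labelled region (x axis), with the symbols and bars of the plot of the enzymes. The triangle, the array labelled CA3 replicate 3, lies at the CbG level of *Foxo3* with 5007, and the square, the array labelled CbG replicate 3, lies at the CA3 level of *Me1* with 1490.0.

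The regulators and the remaining groups gave mixed pictures. Of 6 regulators of antioxidant genes tested, 2 were higher in VUL than in RES neurons, beside 10.2% of all probe sets tested. These were *Foxo3*, by 0.98 (adjusted p = 5.56e-05), and *Hif1a*, by 0.88 (adjusted p = 0.000657), and both had their highest signals in CbG. *Foxo3*, a forkhead factor known to drive *Sod2* and *Cat*, had 1388 to 1517 in CA1 and 5007 to 6222 in CbG, against 903 to 1121 in CA3 and 2208 to 2532 in CTX. For metal and selenium handling, 4 of 8 genes tested were lower in CbG than in CA3 and 2 were higher, beside 27.5% and 18% of all probe sets tested. *Selenow*, a small selenoprotein gene, spanned 1262 to 1511 in CA1, 342 to 424 in CbG, 1164 to 1446.5 in CA3 and 623 to 882 in CTX. With the labels exchanged *Selenop*, the selenium carrier, was lower in CA1 than in CA3 by 0.74 (adjusted p = 0.0322). It was higher in CbG than in CA3 by 0.66 (adjusted p = 0.0193). Over 10 arrays neither call was made: 0 of these 8 genes were called in CA1 minus CA3, beside 10.5% of all probe sets. In CbG minus CA3 4 were lower and 0 higher there, beside 29.2% and 13.9%. Of the other peroxide enzymes 3 were tested and 1 was lower in VUL than in RES neurons, beside 8.29% of all probe sets tested. This was the extracellular peroxidase gene *Gpx3*, lower by 0.67 with the labels exchanged (adjusted p = 0.0324). Its signals were low there, at 162.3 to 178.7 in CA1, 84.3 to 252.9 in CbG, 199.0 to 216.9 in CA3 and 249.7 to 406.4 in CTX. The value of 84.3 came from the array labelled CA3 replicate 3. Over 10 arrays 0 of these 3 genes were called lower in VUL than in RES neurons, beside 9.17% of all probe sets tested.

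Markers of the organelles that house these enzymes were set beside them. Of 9 mitochondrial genes tested, 1 was lower in CbG than in CA3 and 5 were higher in CA3 than in CTX, beside 27.5% and 27.9% of all probe sets tested, with median differences of -0.21 and 0.63. Of 8 peroxisomal genes tested, 0 were called in CbG minus CA3, beside 45.5% of all probe sets in either direction. In CA3 against CTX 4 were higher, beside 27.9%, and the medians of the 2 comparisons were -0.08 and 0.55. The medians over all probe sets were -0.14 and 0.32, and the calls against CTX were made on centred values. Among 4 genes tested that make superoxide or peroxide, 1 was lower in CbG than in CA3 and 1 was higher in CA3 than in CTX. The shares of all probe sets tested were 27.5% and 27.9%. With the labels exchanged *Maoa* and *Maob*, the mitochondrial monoamine oxidases, differed between CA1 and CA3 in opposite directions. *Maoa* was lower in CA1 by 0.72 (adjusted p = 0.0149) and *Maob* higher by 1.03 (adjusted p = 0.00873). Over 10 arrays 0 of the 4 genes were called in CA1 minus CA3, beside 10.5% of all probe sets tested. As labelled, of all these listed genes *Glrx* alone was called in any of the contrasts between VUL and RES, CA1 and CA3, CbG and CTX, CbG and CA3, or CA3 and CTX, higher in CA1 than in CA3 by 1.36 (adjusted p = 0.0272).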

How the data were processed

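The authors captured neurons by laser from 4 brain regions of rats and hybridized amplified RNA to Affymetrix RAE230A arrays, with 3 biological replicates per region. The deposited intensities are MAS5 signals on a linear scale, between 0.1 and 68797.3, with array medians of 145.5 to 199.3. The version of MAS5 is not given in the sources used here. MAS5 scales whole arrays and subtracts mismatch probes, which makes low signals noisy. The number of arrays limits the precision.

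From 15923 probe sets, 57 control probe sets were left out. Of the 15866 others, 12783 had 1 gene symbol in the platform annotation, 312 had several and 2771 were not listed. Signals were set on the log2 scale and centred on the array median. Probe sets above the 50th percentile of the array in at least 8 of 12 arrays, or 7 of 10, were tested, 7535 and 7463 in number. This percentile stands in for present calls. Region means with the replicate number as a block, after the paired tests of the methods, were fitted in limma 3.58.1 (R 4.3.3), with Benjamini-Hochberg adjustment, and the fits were tested on simulated data. Standard errors and 95% intervals come from these fits. For VUL minus RES, the 2 vulnerable region means were averaged and the averaged resistant ones subtracted. Tables and plots were made in Python 3.11.15 with pandas 2.3.3, numpy 2.4.6 and matplotlib 3.10.9.

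All 10 enzymes are named, with the *Prdx1* probe set kept although it is annotated to 2 symbols. From each list of partners up to 4 genes are named, those with the largest VUL minus RES difference after the exchange among the genes called in VUL minus RES, CA1 minus CA3 or CbG minus CTX. For members that passed the F test, the 3 genes with the highest Pearson r over the 12 arrays are named. Members, lists and tests were chosen with earlier results of these data known. Promoters come from RefSeq (GRCr8) by symbol, which matched 9 of 10 members. Alternatives were quantile normalization, no centring, other filters, no replicate block, each array or replicate set left out, and the methods' paired t-test.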

Additional observations from a re-analysis of the deposited data

Results flagged for a closer look

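Over 60 groups examined, 1 array stood far from the others of its group, where chance flags about 1 in 20 groups. It was the array labelled CA3 replicate 3, whose *Gpx1* signal of 439 was the lowest among the 6 RES arrays as labelled. This is 1 of the 2 arrays whose markers went against their labels.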

How the results depend on the processing

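Counts are of calls among the 10 members. As labelled, the F test called 0, against 5 with the labels exchanged and 5 over 10 arrays, CA1 minus CA3 called 0, against 2 and 1, and the other 4 contrasts between 2 regions (CA1 minus CbG, CA1 minus CTX, CbG minus CA3 and CA3 minus CTX) together 0, against 10 and 11. The labels exchanged gave 3 by the F test after quantile normalization and 3 without a filter, CA1 minus CA3 gave 0 without a filter and 1 with the filter in every array, and these 4 contrasts gave 5 after quantile normalization and 5 without centring. Over 10 arrays the F test gave 1 after quantile normalization, 3 without centring and 0 without a filter, CA1 minus CA3 gave 0 without a filter and 0 with the filter in every array, and these 4 contrasts gave 3, 4 and 1 after quantile normalization, without centring and without a filter. The causes were not tested. With 1 array or replicate set left out, the F test ranged over 0 to 3 as labelled, 1 to 6 with the labels exchanged and 1 to 6 over 10 arrays, and these 4 contrasts over 0 to 7, 4 to 10 and 1 to 10. In the last 2 arrangements VUL minus RES ranged over 0 to 1, CA1 minus CA3 over 0 to 2, CbG minus CTX over 0 to 1 and the difference between the pairs over 0 to 1, and as labelled these stayed at 0. Without the replicate block no count of members changed with the labels exchanged, and over 10 arrays CbG minus CA3 gave 4 rather than 5, CA3 minus CTX 4 rather than 5 and CA1 minus CbG 0 rather than 1. No called difference changed its direction, while uncalled CA3 minus CTX values of *Sod1*, *Sod2* and *Prdx1/Prdx1l1* and CbG minus CA3 of *Prdx1/Prdx1l1* did without centring. No source ties a replicate number to an animal, and over 18 pairs of same-numbered arrays the deviations from the region means correlated at a mean of -0.0613 as labelled and 0.0856 with the labels exchanged, where the lowest was -0.0614. The markers and labels of 2 arrays disagree, and the number of replicates, 3, limits what can be called.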
